A study of Mus musculus with 4 samples.

Results

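The white pulp is the lymphoid part of the spleen, and 10 genes grouped as its organising chemokines, lymphotoxin and related genes are described here. Not all of them act in white pulp alone. The mouse spleens were of 2 genotypes, wild-type (WT) and a KLHL3 knock-in (labelled KLHL3-KI). The 10 genes were taken by symbol: the chemokine genes Ccl21a, Ccl19, Cxcl13 and Cxcl12, the lymphotoxin genes Lta and Ltb, the receptor gene Ltbr, and Madcam1, Grem1 and Tnfsf11. All 10 were among the 23763 genes of the table, and all 10 were among the 16970 genes tested. The mice were of strain C57BL/6J and sampled at baseline, with 2 spleen libraries labelled WT and 2 labelled KLHL3-KI. KLHL3 is the substrate adaptor of a cullin ubiquitin ligase that acts on WNK kinases. Neither the knock-in allele nor age or sex is given in the sources used here. RNA was depleted of ribosomal RNA and sequenced with strand kept, to a depth of 8535483 to 10933023 recovered reads per library. All levels are scaled read counts, that is, reads divided by a single factor per library.

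White pulp forms when lymphotoxin made by lymphocytes and inducer cells binds the lymphotoxin beta receptor on stromal cells. The receptor acts through NIK and the alternative NF-kB pathway, and the stroma then makes chemokines that sort lymphocytes into zones. CCL21 and CCL19 bind CCR7 and draw T cells and dendritic cells to the T zone, while CXCL13 binds CXCR5 and draws B cells to follicles. MAdCAM-1 is an adhesion molecule of the cells that line the marginal sinus, and it binds the integrin made of the Itga4 and Itgb7 products.

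Of the 10 genes, 6 were lower in KLHL3-KI spleen at an adjusted p under 0.05 (limma), against 7.56% of all genes tested, and none was higher. These were Ccl21a, Ccl19, Cxcl13, Ltb, Madcam1 and Grem1. Lta, Tnfsf11, Cxcl12 and Ltbr did not pass. Both KLHL3-KI values lay below both WT values for 9 of the 10, against 31.9% of all genes tested. The exception was Ltbr, for which both KLHL3-KI values lay above both WT values. The median log2 fold change of the 10 was -0.67, and that of all genes tested was -0.01. In whole tissue, fewer cells of a type and less RNA per cell cannot be told apart.

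**Figure D1:**
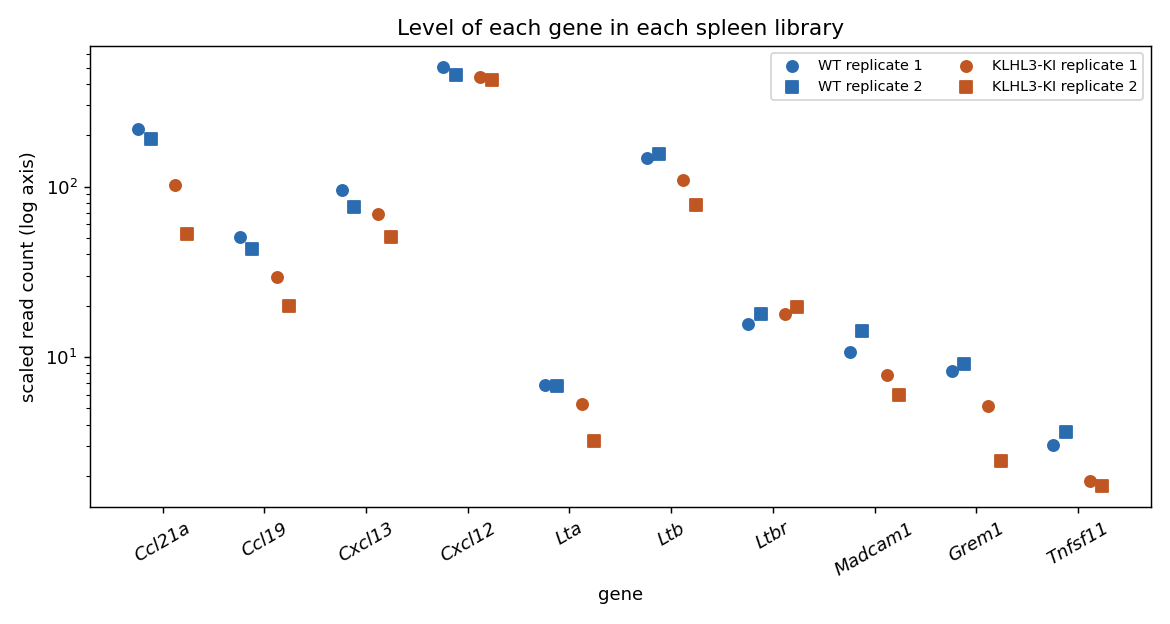
Scaled read count (log axis) of each of the 10 genes in the 4 spleen libraries, with WT in blue and KLHL3-KI in orange, circles for replicate 1 and squares for replicate 2. Ccl21a shows the widest gap, from 217 and 189 in WT to 103 and 52.4 in KLHL3-KI, and Ltbr is the only gene whose KLHL3-KI points lie above its WT points.

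Ccl21a and its copies are shown first, since near-identical genes decide how far its level can be read. Mice carry several Ccl21 genes. Ccl21a encodes the form with a serine that is made in lymphoid organs, and Ccl21b and further copies encode a form with a leucine. Over the 402 coding bases, the GENCODE models of Ccl21a and Ccl21b differ at 2 positions, T84A and C194T, counted from 1 at the start codon with the Ccl21a base first. The model of Gm10591 has the same bases as that of Ccl21b. The coding stretch from position 164 to 224 (build GRCm38, chromosome 4) is printed with the differing base in capitals.
Ccl21a: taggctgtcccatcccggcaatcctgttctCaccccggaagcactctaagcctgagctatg
Ccl21b: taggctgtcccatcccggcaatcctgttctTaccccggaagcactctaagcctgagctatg
Reads within the coding bases that miss both positions fit either gene. Ccl21a held 1937 and 1821 reads in WT against 932 and 538 in KLHL3-KI spleen. Ccl21b and Gm10591 each held 10, 18, 0 and 4 reads in the same order, and Gm13304, another copy that matched Ccl21a at 99.4% of 837 bases, held 0, 0, 8 and 0. The reads given to these copies were few beside those of Ccl21a in every library. Ccl21b and Gm10591 have the same modelled bases and the same values, so these need not be separate reads. How reads were divided between copies is not given in the sources used here.

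Among the T zone chemokines, Ccl21a (ENSMUSG00000094686) measured 217 and 189 in WT spleen against 103 and 52.4 in KLHL3-KI spleen. Its mean went from 203 ± 19.6 to 77.5 ± 35.5 (SD, n = 2 per group), which is -1.45 on the log2 scale (SE 0.24, limma adjusted p = 0.00247). The groups did not overlap, and KLHL3-KI replicate 2 was the lowest library. With a robust variance model the call was lost (limma adjusted p = 0.173, range over the alternatives 2.7e-12 to 0.173). Ccl19 (ENSMUSG00000071005) measured 50.3 and 42.9 in WT spleen against 29.3 and 19.8 in KLHL3-KI spleen. Its log2 fold change was -0.92 (SE 0.17, limma adjusted p = 0.00485), and the groups did not overlap. Both ligands of CCR7 fell, and the ratio of Ccl21a to Ccl19 also moved. That ratio was 4.30 and 4.41 in WT libraries against 3.50 and 2.65 in KLHL3-KI libraries, lower in both KLHL3-KI libraries than in either WT library. The difference in this ratio was not tested (an exact permutation test of 2 against 2 libraries gives no p below 0.333).

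The follicle chemokine Cxcl13 (ENSMUSG00000023078) measured 94.98 and 75.4 in WT spleen against 68.9 and 50.8 in KLHL3-KI spleen. The gap between the nearest libraries of the groups was smaller than the spread within either group. Its log2 fold change was -0.51 (SE 0.16, limma adjusted p = 0.0450), close to the threshold. Over the 17 alternatives its adjusted p ranged from 2.8e-04 to 0.289, and it passed in 11. Cxcl12 (ENSMUSG00000061353), made by stroma of the red pulp and by many other stromal cells, measured 504 and 454 in WT spleen against 438 and 423 in KLHL3-KI spleen. Its log2 fold change of -0.15 did not pass (SE 0.09, limma adjusted p = 0.281). The 95% confidence interval of -0.37 to 0.06 leaves out a fall of the size seen for Ccl21a or Ccl19.

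The lymphotoxin genes encode the subunits of the ligand that signals to the stroma. Ltb (ENSMUSG00000024399), which encodes the membrane-anchoring subunit, measured 148 and 156 in WT spleen against 109 and 78.0 in KLHL3-KI spleen. The WT libraries were close together and the KLHL3-KI libraries were both lower, a difference of -0.72 on the log2 scale (SE 0.14, limma adjusted p = 0.00604). Lta (ENSMUSG00000024402), which encodes the other subunit, measured 6.82 and 6.75 in WT spleen against 5.29 and 3.21 in KLHL3-KI spleen, on 33 to 65 reads. Its log2 fold change was -0.60 (SE 0.22) with a limma adjusted p of 0.0877, so it did not pass, although its confidence interval of -1.10 to -0.09 lay below 0. The ratio of Ltb to Lta was 21.7 and 23.1 in WT libraries against 20.5 and 24.3 in KLHL3-KI libraries, and these ranges overlapped. Tnf, which lies in the same gene cluster on chromosome 17 and whose product shares receptors with soluble lymphotoxin alpha, went from 13.9 ± 1.17 to 7.72 ± 1.69 (log2 fold change -0.79, SE 0.18, limma adjusted p = 0.0124). Ltbr (ENSMUSG00000030339), the receptor of the membrane-bound ligand, measured 15.7 and 17.9 in WT spleen against 18.0 and 19.7 in KLHL3-KI spleen. Its log2 fold change of 0.16 did not pass (SE 0.14, limma adjusted p = 0.447), with a confidence interval of -0.15 to 0.47, and with equal total reads it was -0.00054.

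Madcam1 (ENSMUSG00000020310) measured 10.7 and 14.2 in WT spleen against 7.82 and 5.94 in KLHL3-KI spleen. The log2 fold change was -0.77 (SE 0.20, limma adjusted p = 0.0194), on 61 to 137 reads per library. Grem1 (ENSMUSG00000074934), a secreted antagonist of bone morphogenetic proteins made by reticular cells of the T zone, measured 8.28 and 9.13 in WT spleen against 5.18 and 2.43 in KLHL3-KI spleen. With -1.07 on the log2 scale (SE 0.27, limma adjusted p = 0.0176), this was the second largest fall of the 10, on 25 to 88 reads. Tnfsf11 (ENSMUSG00000022015), which encodes RANKL, a ligand of the TNF family made by marginal reticular cells and activated T cells, measured 3.02 and 3.63 in WT spleen against 1.87 and 1.75 in KLHL3-KI spleen. It rested on 17 to 35 reads and missed the threshold (limma adjusted p = 0.0722, with a log2 fold change of -0.62 and SE of 0.22).

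**Figure D2:**
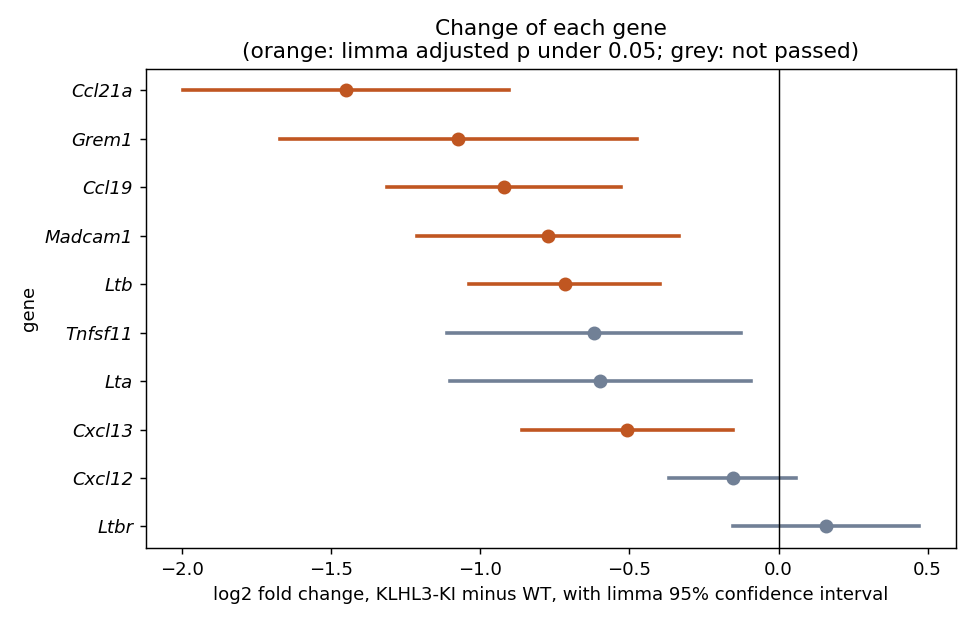
Log2 fold change of each gene, KLHL3-KI minus WT on the log2(value + 1) scale, with the limma 95% confidence interval as a line. Orange marks the 6 genes with an adjusted p under 0.05; the intervals of Cxcl12 and Ltbr cross 0, and those of Lta and Tnfsf11 do not although these genes did not pass.

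Compared per kilobase of exon, so that genes of unlike length can be set side by side, Ccl21a had the highest level in WT spleen at 233 ± 22.5 per kb. Ltb followed at 100.3 ± 3.83, Cxcl13 at 74.1 ± 12.1, Cxcl12 at 58.6 ± 4.34 and Ccl19 at 53.8 ± 6.10 per kb. Madcam1, Ltbr, Lta, Grem1 and Tnfsf11 were between 8.69 and 1.49 per kb. The ranges of neighbours in this order overlapped between Cxcl12 and Ccl19 and between Madcam1 and Ltbr. In KLHL3-KI spleen Ccl21a was at 89.1 ± 40.8 per kb, and its range overlapped that of Ltb at 61.5 ± 14.3. Cxcl12 stood at 52.6 per kb there, in a range shared with Ltb and Cxcl13, while Ccl19 was lower at 28.3 ± 7.77 per kb. Exon lengths came from GRCm38 and join the exons of all transcripts of a gene, so the level of Cxcl12, with 8.18 kb of joined exons, is understated where shorter transcripts are used.

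KLHL3-KI replicate 2 was the lowest of the 4 libraries for 9 of the 10 genes, against 30.3% of all genes tested. It was also the lowest for all 10 B cell markers and for 9 of 12 T cell markers. Without this library 3 genes passed, Ccl21a, Ccl19 and Ltb, against 4.77% of all genes falling. The log2 fold change of Ccl21a was then -0.97 and that of Grem1 -0.65. With KLHL3-KI replicate 1 left out instead, 7 passed against 9.94%, Lta being the gene added, and Ccl21a was at -1.93. Without WT replicate 1 only Madcam1 passed, against 2.80%. Without WT replicate 2 Ccl21a and Ccl19 passed, against 1.59%. In these fits 1 group is a single library, assumed to vary like the other group. The direction was the same in each of these 4 fits for all 10 genes.

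How the libraries were scaled also moved the counts. With equal total reads per library 9 of the 10 passed as lower, against 18.4% of all genes. With haemoglobin, immunoglobulin and mitochondrial genes removed 9 passed, against 17.4%, and after quantile normalization 7 passed, against 14.0%. These scalings put the median of all genes at -0.16, -0.14 and -0.10 on the log2 scale. Cxcl12 passed under each, at -0.32, -0.29 and -0.33, so its call rested on the scaling. Among all genes 2583 rose and 1283 fell as reported, and 1912 rose and 3126 fell with equal total reads. Without a variance trend 3 of the 10 passed (3.88% of all genes), namely Ccl21a, Ccl19 and Tnfsf11. With a robust variance model 4 of the 10 passed, against 1491 of 16970 genes falling. Ccl21a and Cxcl13 were lost there (limma adjusted p = 0.173 and 0.0505). With edgeR on the recovered reads 6 passed (7.98%) and with DESeq2 5 (4.67%), Madcam1 being lost there.

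**Figure D3:**
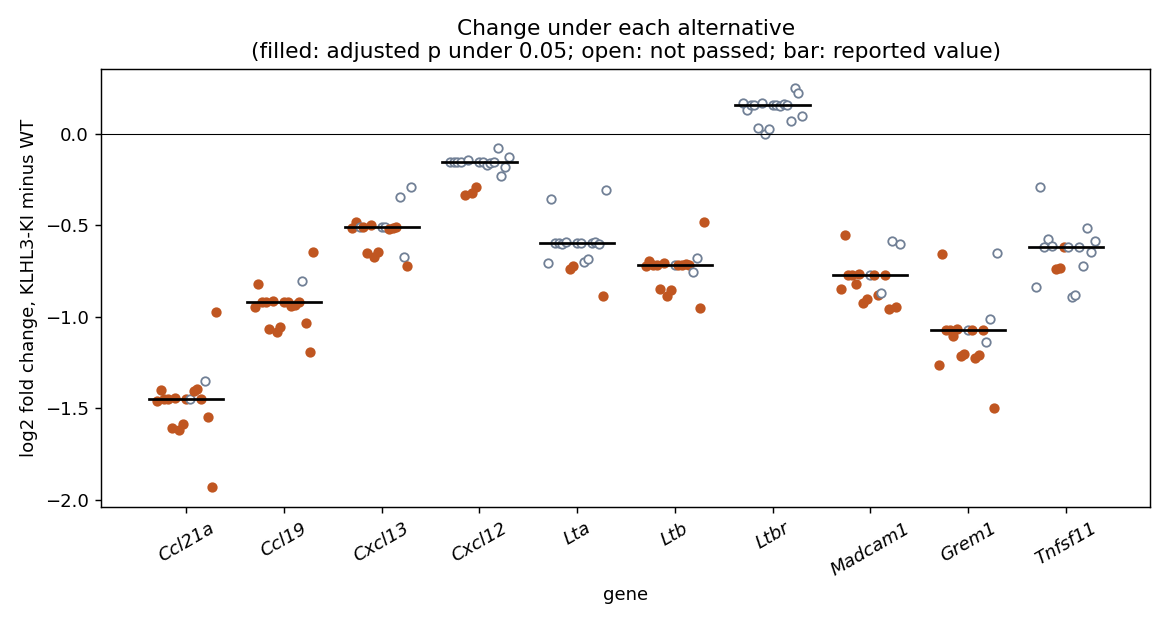
Log2 fold change of each gene under each alternative scaling, filter, test or left-out library (points, filled where the adjusted p was under 0.05) and as reported (black bar). All points of 9 genes lie below 0, while those of Ltbr lie between 0.25 and just under 0; Ccl21a spans -1.93 to -0.97.

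The receptors and binding partners were divided. Of 11 tested, 3 fell and 2 rose, with a median of -0.11, beside 7.56% falling and 15.2% rising among all genes. Ccr7, the receptor of CCL19 and CCL21, went from 82.0 ± 5.49 to 57.0 ± 2.90 (log2 fold change -0.52, limma adjusted p = 0.00590). Cxcr5, the receptor of CXCL13 on B cells, went from 193 ± 2.54 to 134 ± 7.93 (-0.52, limma adjusted p = 0.00312). Itgb7, the beta chain of the integrin that binds MAdCAM-1, went from 115 ± 1.09 to 73.8 ± 4.70 (-0.64, limma adjusted p = 0.00126), while Itga4, its alpha chain and also part of another integrin, was at 601 and 619 and did not pass (0.04, limma adjusted p = 0.795). Without WT replicate 1 the call of Ccr7 was lost (limma adjusted p = 0.0694, range over the alternatives 5.0e-04 to 0.0694).

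The CXCL12 receptors did not pass. Cxcr4 was at 194 ± 31.2 in WT against 208 ± 16.1 in KLHL3-KI spleen (log2 fold change 0.11), and under 4 of the 17 alternatives its direction was the opposite. Ackr3, a scavenging receptor for CXCL12, was at 28.3 ± 4.67 and 37.0 ± 1.90 (0.39, limma adjusted p = 0.0697). Ackr4, which scavenges the CCR7 ligands, was at 3.13 ± 0.318 and 2.38 ± 0.0606 (-0.29, limma adjusted p = 0.368). Among TNF family receptors, Tnfrsf14, the receptor HVEM that also binds lymphotoxin alpha, rose from 32.4 ± 2.71 to 83.4 ± 9.79 (1.33, SE 0.12, limma adjusted p = 4.4e-05) and passed in all 17 alternatives. Tnfrsf1a rose by 0.33 on the log2 scale (limma adjusted p = 0.0481) but passed in only 6 of 17 alternatives. The RANKL receptor gene Tnfrsf11a was at 15.2 and 13.8 and did not pass (-0.13, limma adjusted p = 0.531), and its decoy Tnfrsf11b was under the minimum level, at 0.535 and 0.470.

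Among related ligands, Tnf and Bmp7 fell of 7 tested, and none rose, beside 7.56% falling and 15.2% rising among all genes. Their median was -0.25, and that of all genes -0.01. Bmp7, a bone morphogenetic protein, went from 2.84 ± 0.535 to 0.898 ± 0.443 (log2 fold change -1.03, SE 0.26, limma adjusted p = 0.0204). It rested on 6 to 31 reads, and its KLHL3-KI mean lay under the minimum of 1, so it was tested only through its WT level. Over the alternatives its log2 fold change ranged from -1.69 to -0.41, and it did not pass with DESeq2 (DESeq2 adjusted p = 0.111). Without either WT library neither Tnf nor Bmp7 passed, and without KLHL3-KI replicate 2 only Tnf did. Il7, named after its values were seen, is the survival cytokine made by T zone reticular cells. It was at 7.58 ± 1.62 and 4.33 ± 1.03 and did not pass (-0.69, limma adjusted p = 0.0505), though it passed in 9 of 17 alternatives.

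Inside cells, the pathway runs from the lymphotoxin beta receptor to NF-kB. Of 13 of its genes tested, 6 fell, 7 did not pass and none rose, beside 7.56% falling and 15.2% rising among all genes. Their median was -0.18, and that of all genes -0.01. Map3k14, which encodes the kinase NIK at the head of the alternative pathway, went from 53.3 ± 4.33 to 31.3 ± 2.72 (log2 fold change -0.75, SE 0.12, limma adjusted p = 0.00166) and passed in all 17 alternatives. The NF-kB subunit genes of that pathway, Nfkb2 and Relb, had log2 fold changes of -0.46 and -0.46 (limma adjusted p = 0.0170 and 0.0154). Traf3, an adaptor that holds NIK low, fell by 0.56, Ikbkb by 0.45 and Nfkb1 by 0.32 (limma adjusted p = 0.0226, 0.00753 and 0.0329). The other 7, among them Rela and Chuk, had log2 fold changes between -0.18 and -0.02. These genes are active in lymphocytes as well as in stroma. With WT replicate 2 left out, or with no variance trend, only Map3k14 of these 13 passed, without KLHL3-KI replicate 2 it was 2 and without WT replicate 1 it was 3.

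The promoters of the genes of both CCR7 ligands, which lie close together on chromosome 4, and of the genes holding an NF-kB motif are printed for comparison, as the 250 bases before the RefSeq start site (GRCm38.p6). All 10 genes matched an entry by symbol. Capitals mark matches to the NF-kB consensus (10 bases, named here without its letters and searched on both strands), all of which read on the opposite strand.
Ccl21a, chr4:42773992-42774241, minus strand: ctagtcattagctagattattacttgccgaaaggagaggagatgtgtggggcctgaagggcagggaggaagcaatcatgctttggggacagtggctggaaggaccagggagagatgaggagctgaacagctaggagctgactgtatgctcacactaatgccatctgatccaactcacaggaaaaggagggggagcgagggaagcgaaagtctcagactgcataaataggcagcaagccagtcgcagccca
Ccl19, chr4:42756366-42756615, minus strand: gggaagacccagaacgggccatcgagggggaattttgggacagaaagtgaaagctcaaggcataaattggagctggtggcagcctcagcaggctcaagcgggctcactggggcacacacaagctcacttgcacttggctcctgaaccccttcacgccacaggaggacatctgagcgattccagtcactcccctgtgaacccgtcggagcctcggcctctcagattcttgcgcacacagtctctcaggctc
Madcam1, chr10:79664309-79664558, plus strand: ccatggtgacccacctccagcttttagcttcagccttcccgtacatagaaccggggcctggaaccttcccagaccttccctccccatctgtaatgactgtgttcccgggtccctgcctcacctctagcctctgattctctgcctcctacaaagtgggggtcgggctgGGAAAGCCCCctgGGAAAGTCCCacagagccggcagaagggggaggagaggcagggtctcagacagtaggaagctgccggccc
Ltb, chr17:35194257-35194506, plus strand: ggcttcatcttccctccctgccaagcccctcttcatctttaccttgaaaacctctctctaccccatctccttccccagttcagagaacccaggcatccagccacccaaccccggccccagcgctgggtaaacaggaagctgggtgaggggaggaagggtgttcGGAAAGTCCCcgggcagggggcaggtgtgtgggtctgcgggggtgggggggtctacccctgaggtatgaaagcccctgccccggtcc
The consensus occurred in 2 of the 10 promoters, against 7.25% of 32851 promoter windows of this length. Madcam1 held a pair of matches, the first at -83 to -74 and the second at -70 to -61 from the start site, and Ltb held 1 at -87 to -78. The windows of Ccl21a and Ccl19 held none, which says only that these letters are not in these bases. The letters TATAAA, also searched on both strands and with no overlap with those matches, occurred in the windows of Cxcl13, Lta and Tnfsf11, against 12.4% of all windows.

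Markers of the cells that make or answer these signals were measured beside them. All 10 B cell markers fell, beside 7.56% of all genes, with a median log2 fold change of -0.71, among them Fcer2a (-0.89) and Pax5 (-0.72). All 12 T cell markers fell, with a median of -0.76, among them Lef1 (-1.16), Cd6 (-0.97) and Cd3e (-0.87). Of 12 fibroblastic and reticular stroma markers tested none passed, with a median of -0.05. The summed level of the 13 in the list was 524 and 609 in WT libraries against 572 and 525 in KLHL3-KI libraries. The lowest p among those tested belonged to Pdgfrb (0.32), Col1a2 (-0.26) and Col6a1 (0.30), with limma adjusted p of 0.105, 0.116 and 0.153. Of 8 follicular dendritic cell markers, Mfge8, Clu and Icam1 fell and Prnp and Vcam1 rose, beside 7.56% falling and 15.2% rising among all genes, and the median was -0.30. Mfge8 and Clu, both also made by other cells, had log2 fold changes of -0.81 and -0.54, and Cr2, also a B cell gene and named after its values were seen like Icam1 and Vcam1, was at -0.35 and did not pass (limma adjusted p = 0.0936). Which cells the falls and the rises of this list came from was not tested.

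**Figure D4:**
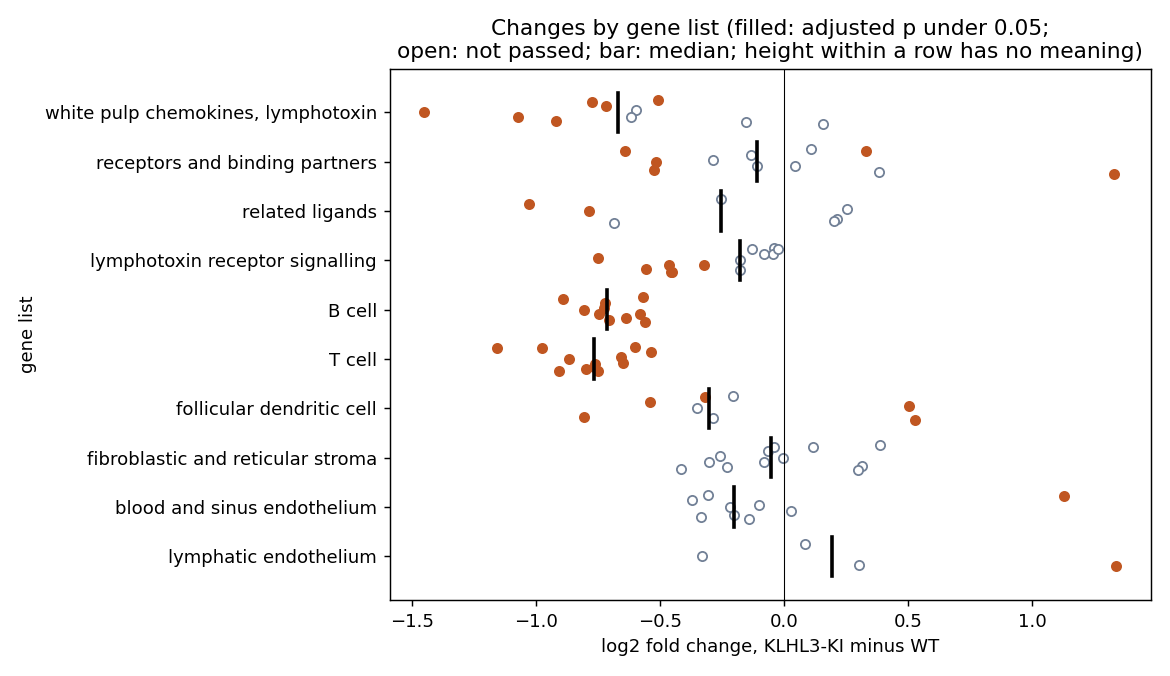
Log2 fold change of each tested gene (points, filled where the limma adjusted p was under 0.05) in 10 gene lists, with the list median as a bar. B and T cell markers all lie below 0 and are all filled, fibroblastic and reticular stroma markers lie on both sides of 0 and none is filled.

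Set against these markers, the genes separated. Relative to the mean log2 level of the B cell markers in the same library, Ltb differed by -0.02 between the groups, Lta by 0.10, Tnfsf11 by 0.08 and Madcam1 by -0.08, with overlapping libraries for each. Relative to T cell markers these differences were 0.07, 0.19, 0.17 and 0.01, again with overlap. Ccl21a was lower in both KLHL3-KI libraries than in both WT libraries on either footing, with differences of -0.76 and -0.67. Grem1 was lower relative to B cell markers, with a difference of -0.38, and overlapped relative to T cell markers. Ccl19 overlapped on both, at -0.23 and -0.13. Relative to B cell markers Cxcl12 and Ltbr were higher in both KLHL3-KI libraries, by 0.54 and 0.85, and relative to T cell markers by 0.63 and 0.95. Cxcl13 overlapped relative to B cell markers, at 0.19, and was higher relative to T cell markers, by 0.28. Relative to the stromal markers Ccl21a differed by -1.43 and Ltb by -0.69, and Cxcl12 was the only one of the 10 whose libraries overlapped. The 1 added before taking logs shrinks the falls of the low genes Lta, Tnfsf11, Madcam1 and Grem1 more than those of the markers. With 0.1 added instead, their log2 fold changes were -0.70, -0.84, -0.85 and -1.27, against -0.60, -0.62, -0.77 and -1.07 as reported. Small differences from the markers, and their sign, therefore cannot be read for these genes. These comparisons with the markers were chosen after the values were seen and carry no test.

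**Figure D5:**
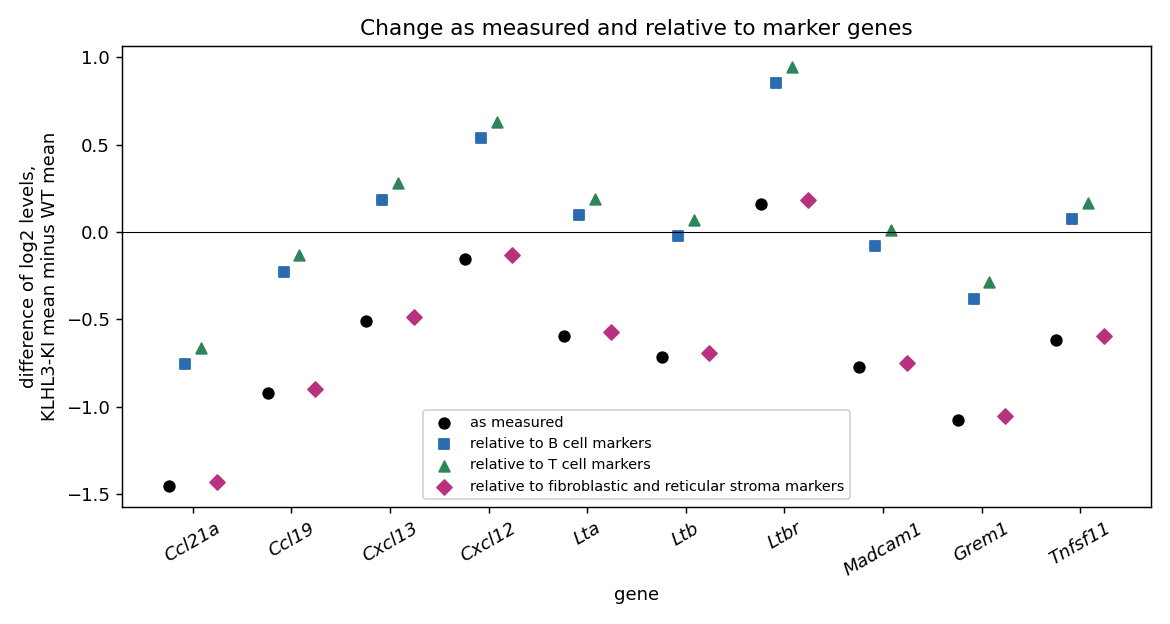
Difference of mean log2 level between KLHL3-KI and WT for each gene as measured (black circles) and relative to B cell (blue squares), T cell (green triangles) or stromal markers (pink diamonds). Ltb lies at -0.72 as measured and at -0.02 relative to B cell markers, while Ccl21a stays at -0.76 there.

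Other lists moved with the groups or stood near 0, and among all genes tested 15.2% rose and 7.56% fell. Summed red cell precursor markers were at 1639 and 1310 in WT libraries against 6138 and 6989 in KLHL3-KI libraries, with all 10 higher (Car1, Klf1 and Rhd by 2.70, 3.12 and 2.91), and summed neutrophil markers at 150 and 66.9 against 1409 and 1905, with all 8 higher (S100a9, S100a8 and Lcn2 by 3.68, 3.76 and 4.11). Their part in the falls described here was not tested. Of 9 blood and sinus endothelium markers only Vwf passed, higher by 1.13, and it is also a platelet gene, while Stab2 and Kdr were at -0.33 and -0.31 and did not pass. Of 4 lymphatic endothelium markers only Mmrn1 passed, higher by 1.34 and likewise made by platelets and their precursors, with Prox1 and Lyve1 at -0.33 and 0.30. Of 3 tested markers of lymphoid tissue inducer cells none passed, with Cxcr6 at -0.44 and Il7r at -0.49 on the log2 scale. The pancreatic markers Prss2, Cpa1, Cpb1, Ctrb1 and Pnlip did not exceed 1.07 in any library, Cela1 rose by 1.03, and no fat marker passed (Adipoq, Cidec and Cfd at -0.19, -0.16 and 0.19). Of 4 mesothelium markers Krt19 passed, higher by 0.84, on 6 to 24 reads and with a WT mean of 0.906, under the minimum of 1. Msln at 1.01 and Upk3b at 0.62 did not pass. WT replicate 1 was lowest for both, at 3.13 and 5.26, against 10.1 and 12.7 in WT replicate 2. Klhl3 itself was at 3.02 and 4.67 in WT libraries against 2.53 and 1.36 in KLHL3-KI libraries and did not pass (limma adjusted p = 0.0895), and its level is no check of a knock-in.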

How the data were processed

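Spleen RNA from 4 libraries, 2 WT and 2 KLHL3-KI, was compared, with groups and replicate numbers from the sample titles and each column matched by its library name. Per the submitters' processing notes, Trimmomatic 0.38, Bowtie2, RSEM 1.3.0 and edgeR were used with build GRCm39; no order, annotation or filter is given in the sources used here. The deposited values are a normalized signal per gene. All values (100%) were whole multiples of the smallest value of their library, within 0.001 of a read. Division gave whole numbers, called recovered reads or reads here. Whether these are rounded RSEM estimates is not given in the sources used here. Names for 23605 of 23763 identifiers (99.3%) came from a GRCm38 annotation, and printed sequences are of that build.

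The 16970 genes with a mean of at least 1 were tested on log2(value + 1) with limma 3.58.1 in R 4.3.3 (two-sided, with a trend of variance on mean; p adjusted by Benjamini-Hochberg over all genes, threshold 0.05). The fold change is on that scale, which understates the change of low genes. The recovered reads were also tested with edgeR 4.0.16 (3888 genes passed) and DESeq2 1.42.0. Alternatives numbered 17: 2 pseudocounts, 2 filters, 4 scalings, 2 variance models, 2 count tests, a replicate block and leaving out each library. The main limma fit and the 2 count tests were also run on simulated data, and the other alternatives were not. The simulation gave every gene the same setting of spread and as many rises as falls, whereas 2583 genes rose and 1283 fell here. It is therefore no check of the calls made on these libraries. Nothing in the labels says that the libraries are from separate animals, so the p-values measure only the spread between these samples, which may be technical.

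The genes, lists and tests were chosen with earlier results of these data known. All 10 genes were named, with pathway genes that passed or that bind a member's product, and up to 3 markers per list by lowest p. Some markers are not reported here by name.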

Additional observations from a re-analysis of the deposited data

How the results depend on the processing

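Of 169 values of the 10 white pulp genes under the alternatives, 139 kept direction and side of the threshold, 20 were no longer past it, 9 were newly past it and 1 changed sign (Ltbr with equal total reads, -0.00054). Leaving out 1 library gave 1 to 7 white pulp genes past the threshold, 3 to 5 receptors, 0 to 3 related ligands, 1 to 6 signalling genes and 1653 to 4621 of all genes. Without a variance trend 3 white pulp genes, 1 signalling gene and 2462 of all genes passed. Of the related ligands 1 passed with a mean of at least 5, where fewer genes are tested, and 1 with DESeq2, where the cause was not tested. Ccl21a did not pass with a robust variance model (limma adjusted p = 0.173, range 2.7e-12 to 0.173).

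Signs changed among genes that did not pass. With quantile normalization, equal total reads and genes removed, Cxcr4 was at -0.0616, -0.0572 and -0.0273 and Itga4 at -0.143, -0.125 and -0.0955. Leaving out 1 library gave -0.0536 to 0.275 for Cxcr4, -0.0459 to 0.132 for Itga4 (-0.0134 without KLHL3-KI replicate 2), -0.0233 to 0.452 for Tnfsf14 and -0.137 to 0.0916 for Rela.

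With the replicate number of the titles as a block, 6 white pulp genes, 4 receptors, 3 related ligands, 6 signalling genes and 4130 of all genes passed. The deviations of same-numbered libraries from their group means had r = -0.03 across 16970 genes. The library names carry other numbers (2 and 3 for WT, 1 and 3 for KLHL3-KI), so replicate 1 of the titles joins numbers 2 and 1. With 2 pairs the correlation cannot settle the pairing, and the numbers were not taken to pair samples. Groups held n = 2 libraries. Tnfsf11 (17 to 35 reads) and Lta (33 to 65 reads) rest on few reads, and the part of depth in their missing the threshold was not tested.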
